A study of Mus musculus with 5 samples.

Results

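Chemokine and chemokine receptor genes were followed through 5 sequential maps of open chromatin. They were taken as the RefSeq protein-coding genes of mouse whose symbol is Ccl, Cxcl, Ccr or Cxcr followed by a digit, together with Cx3cl1, Cx3cr1 and the Ackr genes. The rule gave 59 of the 21774 protein-coding genes on the primary chromosomes: 20 ligands of inflammation, 11 homeostatic ligands, 6 other ligands, 18 receptors and 4 atypical receptors. DNaseI-seq, which reads where the nuclease DNase I can cut chromatin, had been carried out on populations sorted during in vitro differentiation of a single ES cell line of strain 129. In this line GFP reports on Brachyury (Bry), a gene of early mesoderm, and the undifferentiated cells had been kept on mouse embryonic fibroblasts. Mesoderm (MES) was sorted as Bry.GFP+ FLK1- cells and hemangioblasts (HB) as Bry.GFP+ FLK1+ cells. Hemogenic endothelium (HE) was Bry.GFP+ Tie2+/cKit+/CD41-, hematopoietic progenitors (HP) were CD41+, and macrophages (MAC) were CD11b+ cells grown from the CD41+ population. Each stage had 1 list of DNaseI hypersensitive sites (DHSs) without heights or read counts, so no replicate error and no test between stages could be given. All of these cells were made in culture, and no macrophage from an animal was among them.

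Chemokines are small secreted proteins that form gradients and draw cells towards their source. They bind membrane receptors that signal through inhibitory G proteins. Ligands of inflammation are switched on by microbial and cytokine signals and recruit neutrophils, monocytes and eosinophils. Homeostatic ligands place cells in tissues: Cxcl12, acting on Cxcr4, holds hematopoietic stem cells in their niche and guides embryonic progenitors. Atypical receptors bind chemokines without that G protein signal and take them up. Macrophages are a major source of inflammatory chemokines and carry receptors such as Ccr1, Ccr2 and Cx3cr1. Most of the genes sit in clusters that arose by duplication, here a run of receptor genes that includes Ccr9, Ccr1, Ccr3 and Ccr2 on chromosome 9, 6 ligand genes from Ccl2 to Ccl1 and 5 from Ccl5 to Ccl4 on chromosome 11, and 5 from Cxcl5 to Cxcl2 on chromosome 5.

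The sequences below are shown because the same short element recurred in start sites whose DHSs appeared at different stages. They are the 250 bases before the transcription start site (TSS) in the RefSeq promoter table of GRCm38.p6, the patch release of mm10, and they were chosen after their matches had been seen. In capitals are matches to the NF-kB consensus, on either strand, and in Cxcl10 also to the IRF consensus. NF-kB and the IRF proteins are transcription factors of the inflammatory and interferon response. The windows were Cxcl1 at chr5:90890995-90891244, Cxcl2 at chr5:90903649-90903898 and Cxcl3 at chr5:90785851-90786100 on the plus strand, and Cxcl10 at chr5:92348890-92349139 on the minus strand.
Cxcl1: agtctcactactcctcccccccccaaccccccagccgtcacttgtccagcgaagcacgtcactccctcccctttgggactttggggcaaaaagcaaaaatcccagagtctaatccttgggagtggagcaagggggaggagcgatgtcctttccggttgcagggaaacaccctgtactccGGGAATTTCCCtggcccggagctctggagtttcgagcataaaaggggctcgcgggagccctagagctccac
Cxcl2: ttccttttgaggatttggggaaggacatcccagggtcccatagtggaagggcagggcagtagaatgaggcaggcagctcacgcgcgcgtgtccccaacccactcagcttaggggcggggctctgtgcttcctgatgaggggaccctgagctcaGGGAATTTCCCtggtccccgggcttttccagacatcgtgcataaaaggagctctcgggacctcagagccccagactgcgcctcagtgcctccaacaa
Cxcl3: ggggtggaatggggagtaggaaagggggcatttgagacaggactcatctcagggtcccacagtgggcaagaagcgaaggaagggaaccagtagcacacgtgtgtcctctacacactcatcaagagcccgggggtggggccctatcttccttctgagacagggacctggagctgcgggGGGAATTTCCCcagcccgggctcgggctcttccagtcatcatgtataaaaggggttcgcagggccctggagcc
Cxcl10: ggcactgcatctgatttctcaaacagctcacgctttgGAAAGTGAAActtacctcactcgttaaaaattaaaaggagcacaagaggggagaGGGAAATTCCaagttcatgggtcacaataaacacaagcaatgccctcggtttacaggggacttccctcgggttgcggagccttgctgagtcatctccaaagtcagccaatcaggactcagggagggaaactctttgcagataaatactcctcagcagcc

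Cxcl1, Cxcl2 and Cxcl3, which attract neutrophils through Cxcr2, held the same 11 bases, GGGAATTTCCC, at -71 to -61, -97 to -87 and -73 to -63 from their TSS. The run matched the consensus on both strands, and these overlapping matches were counted as 1 place. The element of Cxcl1 lay inside the sites listed in HB and HE. That of Cxcl2 lay 57 bp from the end of the site listed in MAC, and that of Cxcl3 lay 3 bp from the end of the site listed in HE. In Cxcl10, which attracts T cells through Cxcr3, both the NF-kB match at -159 to -150 and the IRF match at -213 to -204 lay inside the sites of HB, HE, HP and MAC. Across the 45 chemokine genes present in the promoter table, 6 held the NF-kB consensus in these 250 bases (Ccl1, Ccr3, Cxcl1, Cxcl2, Cxcl3 and Cxcl10). That was 13.3%, beside 1.21% of the 32851 promoters in the whole table. A gene counted if any of its promoters in the table matched, which can raise its share beside one taken promoter by promoter. Cxcl1, Cxcl2 and Cxcl3 are duplicates of one another, so their matches do not count as separate occurrences. A match describes letters and does not show that a factor was bound.

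A second set is shown for genes whose only promoter DHS was in MAC. Capitals mark the RUNX consensus TGTGGT on either strand. RUNX factors act throughout blood development. The windows, all on the minus strand, were Ccr1 at chr9:123968693-123968942, Cx3cr1 at chr9:120068297-120068546 and Ccl3 at chr11:83649379-83649628.
Ccr1: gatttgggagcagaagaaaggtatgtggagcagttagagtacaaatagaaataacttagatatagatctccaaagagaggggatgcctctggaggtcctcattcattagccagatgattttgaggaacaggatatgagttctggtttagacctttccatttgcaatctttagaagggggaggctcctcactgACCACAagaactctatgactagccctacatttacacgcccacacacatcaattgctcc
Cx3cr1: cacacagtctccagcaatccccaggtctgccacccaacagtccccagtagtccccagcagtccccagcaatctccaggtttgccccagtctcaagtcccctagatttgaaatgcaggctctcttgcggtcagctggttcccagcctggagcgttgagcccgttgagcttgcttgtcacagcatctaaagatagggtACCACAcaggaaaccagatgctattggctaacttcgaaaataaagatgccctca
Ccl3: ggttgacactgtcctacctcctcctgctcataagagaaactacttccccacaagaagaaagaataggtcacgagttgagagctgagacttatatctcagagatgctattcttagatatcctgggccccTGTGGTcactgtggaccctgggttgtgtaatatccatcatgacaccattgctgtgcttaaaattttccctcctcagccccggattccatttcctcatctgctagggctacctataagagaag

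The match lay at -58 to -53 in Ccr1, at -54 to -49 in Cx3cr1 and at -122 to -117 in Ccl3. Each lay inside the MAC site and inside no site of another stage. RUNX letters were found in 10 of the 45 genes (22.2%), again counted by gene, beside 14% of all promoters in the table. Single consensus matches of this length are therefore common, and these 3 were picked from the genes with a MAC site.

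The third set comes from outside promoters, on the plus strand of mm10, and gives the central 300 bases of the widest linked MAC site of the 3 genes with most such sites. It is joined by a region upstream of Cxcl1 that was listed in HE, HP and MAC. Capitals mark PU.1 (GAGGAAGT), RUNX, CEBP (TTGCNNAA) or AP1 (TGANTCA) letters on either strand. The windows were chr9:123928451-123928750, downstream of Ccr1 and by its middle in an exon of the long non-coding RNA gene Gm51701, chr11:82023167-82023466, intergenic and upstream of Ccl2, chr9:44537801-44538100, intergenic and upstream of Cxcr5, and chr5:90876386-90876685, intergenic and upstream of Cxcl1.
Ccr1: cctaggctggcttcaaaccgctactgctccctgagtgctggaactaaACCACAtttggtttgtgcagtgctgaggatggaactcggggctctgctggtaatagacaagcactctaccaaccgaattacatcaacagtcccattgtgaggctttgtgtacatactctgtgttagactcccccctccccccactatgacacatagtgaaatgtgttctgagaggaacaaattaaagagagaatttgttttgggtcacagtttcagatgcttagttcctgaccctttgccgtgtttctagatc
Ccl2: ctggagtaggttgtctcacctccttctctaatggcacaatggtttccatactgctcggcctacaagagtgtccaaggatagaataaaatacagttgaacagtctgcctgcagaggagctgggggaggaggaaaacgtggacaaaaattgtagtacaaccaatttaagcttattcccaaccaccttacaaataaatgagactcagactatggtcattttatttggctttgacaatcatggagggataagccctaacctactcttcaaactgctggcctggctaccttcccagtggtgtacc
Cxcr5: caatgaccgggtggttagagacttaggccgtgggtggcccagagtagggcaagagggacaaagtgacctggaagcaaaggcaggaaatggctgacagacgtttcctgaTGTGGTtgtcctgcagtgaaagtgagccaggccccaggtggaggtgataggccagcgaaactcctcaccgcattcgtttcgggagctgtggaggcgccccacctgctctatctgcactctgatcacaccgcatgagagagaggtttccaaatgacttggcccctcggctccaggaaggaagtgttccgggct
Cxcl1: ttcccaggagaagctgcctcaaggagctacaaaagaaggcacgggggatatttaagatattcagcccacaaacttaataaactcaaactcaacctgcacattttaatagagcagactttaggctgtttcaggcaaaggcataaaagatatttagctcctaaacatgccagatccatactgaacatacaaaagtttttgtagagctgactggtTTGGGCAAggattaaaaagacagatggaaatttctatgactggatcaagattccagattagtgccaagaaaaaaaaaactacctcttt

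The windows of Ccr1 and Cxcr5 held 1 RUNX match each, and that of Cxcl1 held 1 CEBP match. None of these 4 consensus sequences occurred in the central 300 bases of the Ccl2 window, which says only that those letters are not there.

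The lists themselves were unequal. From MES to MAC they held 21949, 24729, 33305, 17734 and 37456 sites, with median widths of 800, 900, 1200, 900 and 600 bp. The paper reports a slightly smaller number for MAC and the same numbers for the other stages. The number of aligned reads was not used here, so depth is unknown from these values, and the absence of a listed site does not mean closed chromatin. Marker genes were checked by their promoters. All 6 macrophage markers had a promoter site in MAC, all 5 endothelial markers in HE and all 5 mesoderm markers in MES, but only 2 of 5 progenitor markers in HP, where Gata1 had none. Progenitor markers had them for 3 of 5 in HE, and mesoderm markers for 5 in HB and 4 in HE, so these markers do not separate neighbouring stages. Hemangioblast markers had them for 5 of 5 in HB, 4 in MES, HE and HP and 3 in MAC. Fibroblast markers, which could mark feeder cells, had promoter sites for 3 of 5 genes in MES, HB and HE, 1 in HP and 0 in MAC. The MES, HB and HE cells had been sorted as Bry.GFP+, and the presence of feeder cells was not tested. Pluripotency markers had them for 4 of 5 in MES and HB, 2 in HE and 0 in HP and MAC. Neutrophil and mast cell markers were without one except Mpo in HE. Over all genes, 55.5, 57.1, 59.9, 48.6 and 48.7% had a promoter site from MES to MAC. Fibroblast counts in MES, HB and HE and progenitor counts in HE and HP lay near these shares. Those counts alone do not tell which cells were present.

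To ask when chemokine promoters opened, a site was called a promoter site of a gene if any part of it lay 1 kb or less from one of its annotated TSSs. Chemokine promoters were listed far less often than promoters in general at the early stages, and most often in MAC. In MES, 6 of the 59 genes had a promoter site (10.2%, beside 55.5% of all protein-coding genes). In HB there were 8 (13.6% beside 57.1%), in HE 13 (22% beside 59.9%), in HP 6 (10.2% beside 48.6%) and in MAC 20 (33.9% beside 48.7%). From HP to MAC the number of chemokine genes went from 6 to 20. The MAC list is the longer one, and with only the widest 17734 sites of each list these numbers were 6 and 11, beside 48.6 and 38.7% of all genes. HE then also had 6 (10.2%), beside 51.7%, so its excess over HP was not seen with lists of equal length. A CpG-rich promoter, with a GC share of at least 0.5 and an observed to expected CpG ratio of at least 0.6 in the 500 bp around a TSS, was found in 8 of the 59 genes (13.6%), beside 55% of all genes. Such promoters tend to be open in most cell types. Among CpG-poor promoters only, the shares were 3.92, 7.84, 17.6, 7.84 and 33.3% of 51 chemokine genes from MES to MAC. Over all 9796 genes with CpG-poor promoters they were 17.4, 18.4, 22.3, 13.1 and 15.9%. With that class of promoter held fixed, the chemokine share was above that of the other genes in MAC. The counts behind it were 2, 4, 9, 4 and 17 genes, so the smaller gaps in HE and HP rest on few genes.

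**Figure D1:**
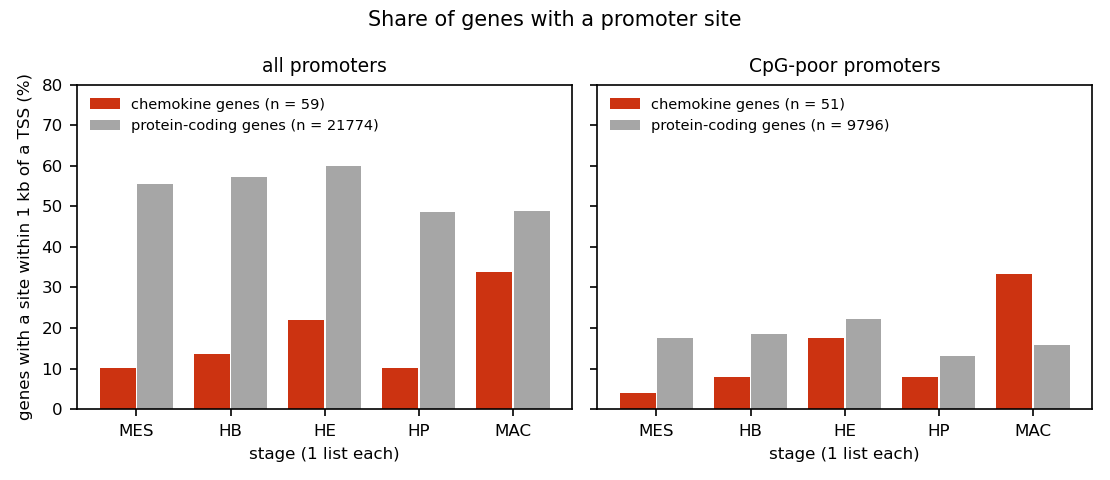
Percent of genes with a site within 1 kb of a TSS (vertical axis) at each stage, for the chemokine genes (red bars) and for protein-coding genes (grey bars), over all promoters on the left and CpG-poor promoters on the right. There is 1 list per stage and so no error bar; on the right the red bar exceeds the grey bar in MAC only, at 33.3% against 15.9%.

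A promoter site in MAC and at no other stage was held by 15 of the 59 genes (25.4%), beside 1.72% of all genes. Within CpG-poor promoters this was 15 of 51 (29.4%), beside 3.52%. In HE alone it was 3 genes (5.08% beside 3.03%), and at all 5 stages 2 genes (3.39% beside 42%). No promoter site at any stage was found for 29 of 59 (49.2%), beside 34.3% of all genes, and the other 30 had at least 1 (50.8% beside 65.7%). Within CpG-poor promoters, 26 of 51 had at least 1 (51%), beside 30.1%.

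Among the ligands of inflammation, 11 of 20 had a promoter site in MAC, beside 48.7% of all genes, against 0, 2, 4 and 1 from MES to HP, beside 55.5, 57.1, 59.9 and 48.6%. In the Ccl2 cluster of chromosome 11, Ccl2, Ccl7 and Ccl12, which attract monocytes through Ccr2, had promoter sites in MAC only. The Ccl2 site spanned 800 bp at chr11:82035167-82035966, with its middle 11 bp from the TSS. Ccl2 also had the second highest number of linked sites in MAC, that is, sites up to 100 kb away whose nearest protein-coding TSS was its own. There were 7 in MAC, 3 in HE, 1 in HP and 0 in MES and HB. All 7 MAC sites lay upstream, from 5.36 to 30.6 kb away, and the widest, 1700 bp at chr11:82022467-82024166, lay 12.3 kb away. One of the HE sites, 28.5 kb upstream, overlapped a MAC site, while those 23.7 kb upstream and 3.28 kb downstream were in HE alone. Ccl11, an eosinophil attractant, and Ccl8, a monocyte attractant, had no promoter site but 4 and 2 linked sites, all in MAC. The whole cluster was empty in MES and HB.

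The neighbouring cluster on chromosome 11 behaved alike. Ccl3 and Ccl4, which attract monocytes and T cells, and Ccl6 and Ccl9, which act on Ccr1, had promoter sites in MAC only. The Ccl3 site at chr11:83648867-83650066 also fell within 1 kb of a second, predicted TSS of Ccl4, but Ccl4 had 2 further sites within reach of its curated TSS. Ccl6 had 4 linked sites, Ccl4 had 3 and Ccl9 had 2 in MAC, while HE had 0, 1 and 2 for these genes. The HE sites of Ccl9 lay 22.1 kb downstream and 4.52 kb upstream. Ccl5, which attracts T cells and monocytes, had no promoter site, 1 linked site in HE and 3 in MAC, and the HE site overlapped the MAC site 19.9 kb upstream. Neither MES nor HB nor HP had a site in this cluster.

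The Cxcl cluster of chromosome 5 followed another order. Cxcl5 and Cxcl3 had a promoter site in HE only, Cxcl1 in HB and HE, and Cxcl2 in MAC only. All are neutrophil attractants. The Cxcl2 site was narrow, 200 bp at chr5:90903546-90903745, and the HE site of Cxcl1 was 1100 bp wide at chr5:90890726-90891825. Cxcl1 had no promoter site in MAC, although it had 4 linked sites there, against 2 in HE, 1 in HP and 0 in MES and HB. The upstream region shown above was one of these, with an HE site of 1300 bp, an HP site of 800 bp and a MAC site of 1100 bp that overlapped about 14.5 to 15 kb from the TSS. Cxcl5 had a similar shared region 17.1 kb upstream, listed in HE, HP and MAC. Cxcl15, in the same cluster, had no site of either kind.

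**Figure D2:**
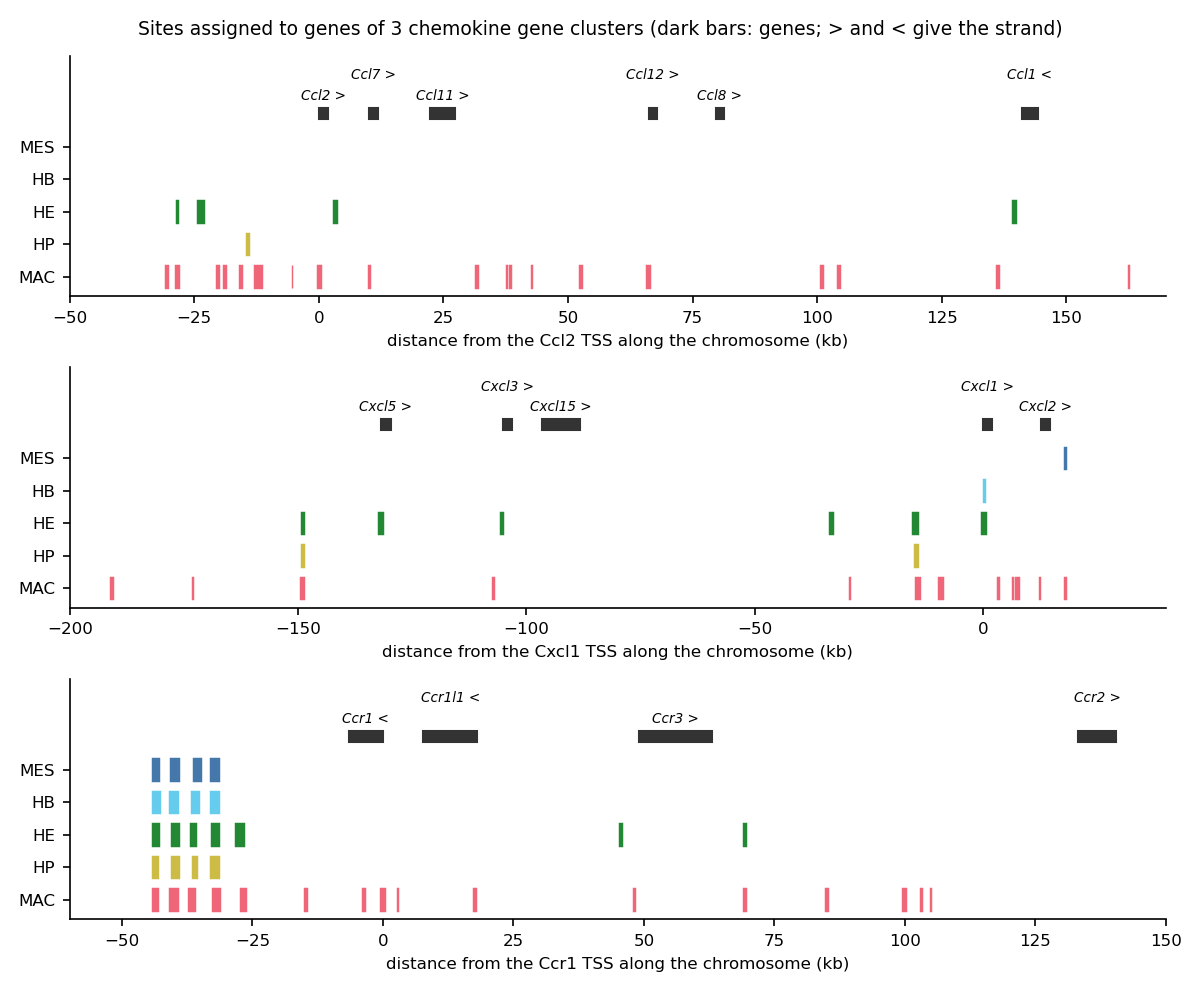
Sites of each stage (coloured bars, rows from MES to MAC) assigned to chemokine genes in 3 clusters, drawn to scale by distance along the chromosome in kb from the TSS of Ccl2 (top), Cxcl1 (middle) and Ccr1 (bottom). Dark bars are genes; the Ccl2 cluster is empty in MES and HB, the Cxcl cluster holds promoter sites in HB, HE and MAC, and the bars shared by all rows 32 to 44 kb downstream of Ccr1 lie apart from the stretch between Ccr1 and Ccr2, which has MAC sites and 2 HE sites.

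The remaining inflammatory ligands were scattered. Cxcl10 had promoter sites at 4 stages, with widths of 400, 1000, 700 and 400 bp from HB to MAC, all in an intron of the overlapping gene Art3. Cxcl9, its neighbour, had none. Ccl22, a ligand of Ccr4, and Ccl24, an eosinophil attractant, had promoter sites in MAC only. Ccl24 added 2 linked sites in MAC, and Ccl22 added 1 in HP. Ccl1 had 1 linked site in HE and 2 in MAC. Ccl20, the ligand of Ccr6, had no site at any stage.

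Among the homeostatic ligands, 2, 2, 2, 1 and 1 of 11 had a promoter site from MES to MAC, beside 55.5, 57.1, 59.9, 48.6 and 48.7% of all genes, and the genes with one were Cxcl12 and Ccl25. Cxcl12 had promoter sites of 300, 800 and 2400 bp in MES, HB and HE, and none in HP or MAC. Its linked sites numbered 3 in MES and 1 in HB, with 0 in HE, HP and MAC, so the HP and MAC lists held no site of this gene. Ccl25, the thymic ligand of Ccr9, had a site at all 5 stages, but that site lay at a predicted TSS and also within 1 kb of a TSS of Elavl1, a gene for an RNA-binding protein, and not at the curated TSS of Ccl25. Ccl28, a mucosal ligand, had no promoter site and 5, 5, 3, 2 and 5 linked sites from MES to MAC, of which those over 13 kb upstream lay in the introns or an exon of its neighbour Tmem267. Cxcl14 had 2 in MES, 3 in HE and 2 in MAC. Cxcl13, which attracts B cells through Cxcr5, had 1 in MES and 1 in MAC.

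The other homeostatic genes, Ccl19, Ccl21a, Ccl21b, Ccl21d, Ccl27a and Ccl27b on chromosome 4, had no site of either kind. Their sequence is repeated: within 1 kb of a TSS, the share of 50-base words that occur once in the genome was 0% for Ccl21b, Ccl21d and Ccl27b, 23.4% for Ccl21a, 29.5% for Ccl19 and 44% for Ccl27a. The authors kept uniquely placed reads only, and the part of this in the missing sites was not tested. Without these 6 genes, 20 of 53 had a promoter site in MAC (37.7%). In all, 12 of the 59 genes had neither a promoter nor a linked site at any stage, beside 22.7% of all genes: these 6 and Ccl20, Ccr10, Cxcl15, Cxcl9, Ccl26 and Ccr8. Ccr10 had only 0.696 kb of its own within which a site could be linked to it, and Cxcl16 had 0.029 kb, beside a median of 39.6 kb over the chemokine genes and 48.5 kb over all genes.

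Among the other ligands, Cx3cl1, the membrane-bound ligand of Cx3cr1, had promoter sites at all 5 stages, of 1000, 1100, 1500, 700 and 400 bp from MES to MAC. Its linked sites numbered 1, 3, 3, 3 and 2. Its neighbour Ccl17, a ligand of Ccr4, had no promoter site but 2, 3, 4, 4 and 4 linked sites. The Ccl17 sites 12.3 kb downstream, listed from HB to MAC, lay in an exon of Ciapin1. Cxcl16, a scavenger receptor and ligand of Cxcr6, had promoter sites in MES and HE that were also within 1 kb of a TSS of Zmynd15. Cxcl17 had one in HE only, and Ccl26 and Cxcl15 had no site.

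Among the receptors, a promoter site was present in MAC for 7 of 18, beside 48.7% of all genes, and for 1, 2, 2 and 1 from MES to HP, beside 55.5, 57.1, 59.9 and 48.6%. Linked sites of the 18 receptors numbered 12, 15, 22, 8 and 41 from MES to MAC. Over all genes, the mean number of linked sites per gene was 0.419, 0.505, 0.796, 0.322 and 1.08. Ccr1, Ccr1l1, Ccr3, Cx3cr1 and Cxcr2 had a promoter site in MAC only. Ccr1 and Cx3cr1 are macrophage receptors for inflammatory ligands and for Cx3cl1, Ccr3 is best known on eosinophils, and Cxcr2 is the main receptor of neutrophils. The Ccr3 and Cxcr2 sites lay near predicted TSSs and beyond 1 kb of the curated ones. Without a curated TSS in reach were also the Ccr4 site in HP and all sites of Ccl25, 4 genes in all.

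Ccr1 had most linked sites of all, with 8 in MAC, 5 in HE and 4 each in MES, HB and HP. A group of 4 regions between 32 and 44 kb downstream of it was listed at every stage or, in the case of the region at chr9:123931801-123932900, at every stage but MES. The MES list also had a site that overlapped the sites of that region, but its central 500 bp did not merge with theirs. The site furthest away, at 43.6 kb, lay within 1 kb of the TSS of Gm51701. The additional MAC sites lay 14.9 kb and 3.74 kb downstream and 2.71 kb upstream, and none of the other lists had a site there. An HE site 27.5 kb downstream and a MAC site 26.8 kb downstream overlapped in their outer parts and stayed separate regions, each listed at a single stage.

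Ccr3 had 2 linked sites in HE and 2 in MAC besides its promoter site, and the HE site 16 kb downstream overlapped a MAC site. Ccr2, which marks inflammatory monocytes, had no promoter site in any list. Its linked sites were in MAC alone, 3 in number, and lay 28.4 to 33.4 kb upstream. Ccr6 was listed in MAC only as well, with 4 linked sites. Cx3cr1 had 4 linked sites in MAC and 1 in HE. That HE site, 5.1 kb upstream, overlapped a MAC site of 100 bp.

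Cxcr5, the B cell receptor of Cxcl13, had no promoter site and 2 linked sites in HE, 1 in HP and 6 in MAC. The site shown above, 11.5 kb upstream, was 900 bp wide in MAC, 1600 bp in HE and 800 bp in HP. Ccr7, which guides dendritic cells and T cells to lymph nodes, had a promoter site only in HB and 4, 4, 5, 1 and 3 linked sites from MES to MAC. Ccr4, found on T helper and regulatory cells, had a promoter site only in HP and linked sites of 2, 2, 4, 2 and 1, several of them in introns of its neighbour Trim71. Cxcr3, the receptor of Cxcl9 and Cxcl10, had promoter sites in HE and MAC. Ccr9, Cxcr1 and Cxcr6 had 1 linked site each in MAC, and Cxcr6 had 1 in HE.

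Cxcr4, the receptor of Cxcl12, is the receptor best known in early development. Its promoter sites were 700, 1800 and 2100 bp wide in MES, HB and HE and 600 bp in MAC, with none in HP. Its linked sites numbered 2, 5, 2, 0 and 2. The HB list thus held more linked sites of Cxcr4 than any other list, and HP held no site of either kind. Cxcr4 has a CpG-rich promoter, as has Cxcl12.

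Of the 4 atypical receptors, 1, 1, 2, 2 and 0 had a promoter site from MES to MAC, beside 55.5, 57.1, 59.9, 48.6 and 48.7% of all genes, and so few genes allow no reading of an order. Their linked sites numbered 0, 2, 7, 3 and 2 from MES to MAC, beside means per gene of 0.419, 0.505, 0.796, 0.322 and 1.08 over all genes. Ackr3, which takes up Cxcl12, had promoter sites at all stages but MAC, with widths of 800, 800, 2200 and 1000 bp from MES to HP. Ackr1, known from red cells and venous endothelium, had promoter sites of 1100 bp in HE and 500 bp in HP, which lay in an exon of the overlapping gene Cadm3. It also had a linked site 4.05 to 4.11 kb downstream in HB, HE and HP. Ackr2, which takes up inflammatory ligands, had 2 linked sites in HE and 1 in HP, and Ackr4 had 1 in HE and 1 in MAC.

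How close the calls came to the limit of 1 kb differed between genes. Only the nearest site of each gene at each stage is considered here. Of these, the ones closest to the limit from within were those of Ackr3 in HP at 822 bp, Ccr3 in MAC at 825 bp, and Ackr3 in MES at 878 bp and HB at 933 bp. Just beyond it were sites near Ccr10 in HE at 1068 bp, Ccl17 in HE at 1071 bp, and Ccr10 in MES at 1127 bp and HB at 1137 bp.

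Over all chemokine genes, linked sites numbered 29, 31, 53, 24 and 99 from MES to MAC. At least 1 was held by 13 genes in MES (22%, beside 25.8% of all genes), 12 in HB (20.3% beside 27.9%), 23 in HE (39% beside 37%), 14 in HP (23.7% beside 21.3%) and 36 in MAC (61% beside 42.3%). Because clustered genes have little sequence of their own, linked sites were also counted per Mb of sequence nearest to each gene. In MAC there were 31.4 per Mb (95% Poisson interval 25.5 to 38.2), beside 14.4 over all genes, a ratio of 2.17. At the earlier stages, from MES to HP, the ratio was 1.64, 1.46, 1.58 and 1.77. With each list limited to its wider sites, from the median width up, the ratio was 2.46, 2.55, 1.63, 3.14 and 2.60 from MES to MAC, so MAC no longer had the highest. With lists of equal length, linked sites in MAC numbered 43, and the ratios were 1.68, 1.79, 1.68, 1.77 and 2.52 from MES to MAC. Over all listed sites, the interval of the ratio ran from 1.77 to 2.65 in MAC and from 0.989 to 2.07 in HB. These intervals cover counting error of the sites only, and sites of 1 gene are not independent. Restricted to 20 kb, the ratio in MES was 0.997 and that in HB 0.813, so the excess at those stages was in sites beyond 20 kb, such as those downstream of Ccr1.

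To compare stages region by region, sites were set to 500 bp around their middle and merged across stages where these windows overlapped by at least 25% of their length. Neighbouring sites that overlapped by less, or only outside these windows, stayed separate regions. This gave 194 regions of chemokine genes. MAC alone accounted for 93 of them (47.9%, 95% Wilson interval 41 to 54.9), beside 30.3% of all regions of protein-coding genes. HE alone had 28 (14.4% beside 16.3%), and all 5 stages shared 6 (3.09% beside 14.7%). With lists of equal length, 44 of 104 regions were in MAC only and 9 in HE only. No share over all regions at equal length was set beside these counts, so they do not show whether the excess in MAC remains. The 6 regions shared by all stages lay at the promoters of Ccl25 and Cx3cl1, upstream of Ccl28 and downstream of Ccr1. Of the chemokine regions open in MAC, 76.9% were listed at no other stage (interval 68.6 to 83.5), beside 54.6% of all regions open in MAC. For HE this share was 42.4% (31.2 to 54.4) beside 33%, for MES 22.9% (12.1 to 39) beside 11.8%, for HB 23.1% (12.6 to 38.3) beside 14% and for HP 16.7% (7.34 to 33.6) beside 8.24%. The share was thus above that of all regions at each stage, and the latter lay below the interval in MES and MAC.

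**Figure D3:**
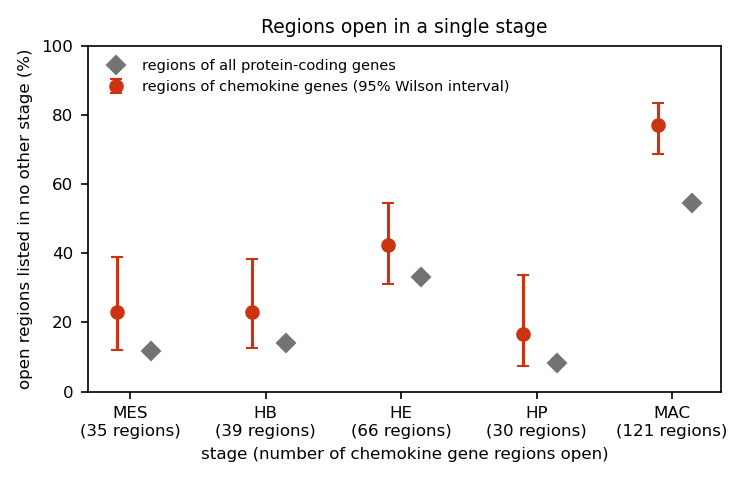
Percent of the regions open at a stage that were listed at no other stage (vertical axis), for chemokine genes (red points with 95% Wilson intervals, counting error only) and for all protein-coding genes (grey diamonds). In MAC the red point is at 76.9% and the grey one at 54.6%, below the interval; in HE the grey one, 33%, is within it.

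Regions were also followed from one stage to the next. Of 35 chemokine regions open in MES, 20 were open in HB (57.1%, interval 40.9 to 72, beside 82.5% of all regions). Of 39 in HB, 20 were open in HE (51.3%, interval 36.2 to 66.1, beside 66%), and of 66 in HE, 21 were open in HP (31.8%, interval 21.8 to 43.8, beside 45.3%). Of 30 regions in HP, 13 were open in MAC (43.3%, interval 27.4 to 60.8, beside 67.8%). The share over all regions lay within the interval of the chemokine regions from HB to HE and above it at the other steps. Here too, regions were not matched by place or promoter class. The step from HP to MAC opened 108 regions, 89.3% of those open in MAC, beside 66.2% over all regions, and closed 17. Of the 108, 93 had been listed at no earlier stage, 10 had been listed in HE and 5 in MES or HB but not HE. Over all regions open in MAC, 66.2% were opened at this step and 54.6% were listed in MAC only. Most regions opened at this step were thus listed in MAC only over all genes as well. The HP list was the shortest, and the part of that in the regions missing from HP was not tested. Regions of chemokine genes outside promoters lay a median of 14.1 kb from the TSS, beside 17.7 kb over all genes.

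To see which letters these regions shared, 11 consensus sequences were searched on both strands of the central 500 bp. None contains another whole, although matches can share bases. PU.1, the macrophage and myeloid factor, had its consensus in 24 of the 194 regions (12.4%, interval 8.46 to 17.7), beside 7.99% of all regions. The consensus AGATAA of the GATA factors, regulators of blood progenitors, was found in 30.9% (24.8 to 37.7) beside 21.8%, and RUNX in 41.2% (34.5 to 48.3) beside 32.8%. AP1 stood at 27.8% (22 to 34.5) beside 21.8%. NF-kB stood at 4.64% (2.46 to 8.58) beside 2.5%, in 9 regions, of which 4 were promoters: those of Cxcl1, Cxcl2, Cxcl5 and Cxcl10. For NF-kB, CEBP, IRF, TEAD (GGAATG), SOX (ACAANG), EBOX (CAGATG) and STAT (TTCNNNGAA), the share over all regions lay within the interval of the chemokine regions.

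The comparison changed when it was made among regions of MAC alone. In the 93 chemokine regions open only in MAC, PU.1 letters were found in 15.1% (interval 9.18 to 23.7) beside 14.2% of all MAC-only regions, CEBP in 29% beside 29.9%, AP1 in 29% beside 33% and RUNX in 48.4% (38.5 to 58.4) beside 41.1%. By these counts the MAC-only regions of chemokine genes were close to MAC-only regions in general. NF-kB letters were in 2 of the 93 (2.15%), beside 2.27%. The 500 bp searched reach past the ends of narrower sites, and 1 of these 2 is the Cxcl2 promoter, whose element lies outside the listed site.

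**Figure D4:**
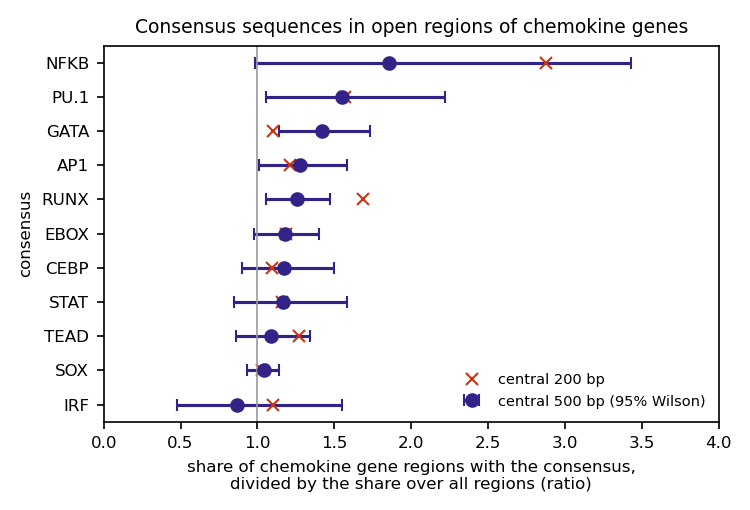
Share of chemokine gene regions that hold a consensus, divided by the share over all regions (horizontal axis, ratio), for 11 consensus sequences (vertical axis), in the central 500 bp (blue points with 95% Wilson intervals of the share) and the central 200 bp (red crosses). PU.1, GATA, RUNX and AP1 have intervals above 1 at 500 bp, with ratios of 1.55, 1.42, 1.26 and 1.28, and GATA falls to 1.1 at 200 bp.

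Other genes of the pathway were read from lists of 8 chemokine genes outside the naming rule and 27 genes that act downstream of the receptors. Among the first, Pf4, a platelet chemokine in the Cxcl cluster, had a promoter site in HE, HP and MAC. Ccrl2 had one in HE and HP, and Cmklr1, the receptor of chemerin, in MES, HB and MAC. Ppbp, Xcl1, Xcr1, Rarres2 and Pitpnm3 had no promoter site. Promoters of the signalling genes were listed for 18, 19, 19, 15 and 22 of the 27 from MES to MAC, beside 55.5, 57.1, 59.9, 48.6 and 48.7% of all genes. Gnai2 and Gnai3, for inhibitory G protein subunits, Arrb1 and Arrb2, for the arrestins that desensitise receptors, and Rac1, for a GTPase of cell movement, had a promoter site at all 5 stages. Pik3cg, Dock2, Rgs1 and Was, used by blood cells to turn receptor signals into movement or to end them, had one in MAC only. Rac2, the blood cell counterpart of Rac1, had one in HE, HP and MAC.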

How the data were processed

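DNaseI-seq had been performed on 1 sample per stage, and the MAC label mentions 2 replicates whose way of combination is not given in the sources used here. Per the study's methods, the authors trimmed adapters with CutAdapt, aligned reads to mm10 with Bowtie, kept unique reads, used Picard against duplicates and DFilter, in 100 bp bins, to call sites. The labels also name HOMER, and versions are not given in the sources used here. Each deposited line gives only the position of a site, its first and last base, without a score, count or height. No interval ran past a chromosome end of GRCm38.p6, whose RefSeq annotation gave 58496 protein-coding TSSs.

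Sites were assigned with Python 3.11.15, numpy 2.4.6 and scipy 1.17.1 as a promoter site (any part within 1 kb of any TSS) or, by their middle, to the nearest protein-coding TSS up to 100 kb away. The assignment was tested on simulated sites. Regions were merged after the study's scheme, but around the middle of a site in place of its summit and over these 5 stages, without ES cells. No p-values were computed, since each stage had 1 list. Named were genes with a promoter site, those with most linked sites, those without a site, and Cxcr4, Cxcl12, Ackr3, Ccr2, Ccl2 and Cx3cr1 for their known roles. The genes, lists and consensus sequences were chosen with earlier results of these data known. Cxcl11, a pseudogene in this annotation, was not included, and 1 receptor gene that enters the counts is not reported here by itself, in text or figures. Alternatives varied the reach, the TSSs, the width of sites, the merging and the motif window.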

Additional observations from a re-analysis of the deposited data

How the results depend on the processing

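MAC had most promoter sites at a reach of 500 bp and at 2 kb, and most promoter and linked sites with curated TSSs and when narrower sites were dropped. Width mattered most. When each list was limited to its wider part, from the median width up, 3, 3, 6, 2 and 12 genes had a promoter site from MES to MAC, beside 42.9, 48.1, 51.9, 37.7 and 40.1% of all genes, and linked sites numbered 11, 19, 20, 10 and 49. The density ratio became 2.46 in MES, 2.55 in HB and 3.14 in HP, beside 2.60 in MAC, so HP then exceeded MAC. Regions fell to 95, with 53 in MAC only, 13 in HE only and 2 in HE and MAC. With the widest 17734 sites of each list, promoters with a site numbered 5 in HB, 6 in HE and 11 in MAC, beside 52.5, 51.7 and 38.7% of all genes, and linked sites 20 in HE and 43 in MAC. Regions were then 104, with 44, 9 and 0 in these patterns. No share over all regions was set beside the region counts at these width settings, so they give no comparison with other genes. Up to 20 kb, linked sites numbered 13 in MES, 12 in HB, 32 in HE and 62 in MAC, with density ratios of 0.997 in MES and 0.813 in HB. In the central 200 bp the ratio for RUNX was 1.69 and for GATA 1.1. The other 92 values, those of the choices made after seeing the data included, stayed within 1.5 times the reported count or within its counting interval. Chosen after seeing the data, leaving out promoter sites shared with a gene outside the list gave 4, 7, 11, 5 and 19 genes from MES to MAC, and leaving out the 6 genes in repeated sequence left the reported counts of 6, 8, 13, 6 and 20 as they were. No paired analysis was possible because each stage had 1 list, also MAC, whose label names 2 replicates. The read totals of the libraries did not enter the analysis, and statements that a site was not listed depend on depth.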
